A study of Mus musculus with 6 samples.

Results

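The enzymes that build, extend and sulfate glycosaminoglycans were examined in murine mesenchymal stem cells (MSCs) before and after culture. Members were chosen by gene symbol: the heparan sulfate polymerases and sulfotransferases, the chondroitin polymerases, every gene named Chst, the xylosyltransferases and glucuronyltransferases of the linker, the extracellular sulfatases and the hyaluronan synthases. This gave 46 of the 17457 genes in the table, of which 20 were placed with heparan sulfate, 13 with chondroitin sulfate, 3 with the linker and 3 with hyaluronan. The remaining 7 share the names of these families but act mainly on other glycans, such as keratan sulfate or the HNK-1 epitope, and were kept apart.
RNA was sequenced from 6 libraries, all from wild type, 10-week-old female C57BL/6J mice. The 2 libraries of primary MSCs came from cells sorted straight from collagenase-digested long bones, each a pool of several mice, and the 4 libraries of cultured MSCs came from the same kind of digest, grown for 10 days with a single passage in MesenCult medium and sorted afterwards, each from more than 1 mouse. Both sorts took viable cells without CD45, Ter119 or CD31 and with Sca-1 and PDGFRα. The mixed digest, not the sorted cells, was cultured, so the cells that met the gate need not descend from those sorted as primary MSCs. In such bulk samples fewer cells of a type and less RNA per cell cannot be told apart.

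Glycosaminoglycans are long, negatively charged sugar chains. Heparan sulfate and chondroitin sulfate are assembled in the Golgi on a core protein, starting from a short linker that begins with xylose, then polymerised from alternating sugars and sulfated at set positions, and the pattern of sulfates sets which growth factors, chemokines and matrix proteins a chain can hold. Hyaluronan has no core protein and no sulfate, and is spun out at the cell surface directly by its synthases. In bone and cartilage these chains carry the aggrecan matrix, keep signals near the cell and cushion the tissue.

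Levels are given as FPKM, sequenced fragments divided by transcript length and by the mapped fragments of the library, a unit per length in which genes can be set side by side. The sum over genes was 612104 to 642497 in cultured MSCs, beside 559601 and 571471 in primary MSCs. The table holds no read counts, so the depth of each library is not known from it, and the paper gives a range of clean reads over the samples. Testing with limma covered the 11405 genes that reached 1 FPKM in 2 or more libraries, and was done on log2(FPKM + 0.1). The words "rose" and "fell" stand for an adjusted p under 0.05. The added 0.1 draws in the change of genes near 0. Fold changes are of cultured over primary MSCs on that scale, and the median gene tested stood 0.45 (log2) higher in cultured MSCs, so an enzyme with a log2 fold change of 0.45 kept its place among the genes.
Genes listed as markers of other cells of the bone differed between the groups as well. The sums below are levels of transcripts and not amounts of cells. In primary MSCs Comp, Chad and Fmod stood at percentile 99.9 of all genes, averaged over libraries. Over all genes tested 48.1% rose and 17.6% fell, to be set beside the count of each list. Of 15 listed genes of macrophages and monocytes 13 were tested, 12 rose and none fell, with Lyz2 and Cd68 the most abundant. Of the 13, 8 reached 1 FPKM in cultured MSCs alone and so had to be higher to be tested, as the 4 globins given below had to be lower. The summed level of the 15 was 108 to 352 FPKM in cultured and 34.3 and 34.4 in primary MSCs, where Fcgr1 and Mrc1 were listed at 0. Of 10 chondrocyte genes 9 were tested, 2 rose and 4 fell, with a sum of 1002 to 1551 against 8728 and 9631 FPKM. Comp and Chad were the most abundant of these and fell, while Col2a1 rose, from 37.98 and 171.44 FPKM in primary to 331.32 to 723.16 FPKM in cultured MSCs, where Chad was at most 1.59 FPKM. Of 7 osteoblast and osteocyte genes the 5 tested fell, with 33.7 to 42.3 against 642 and 1410 FPKM, with Ibsp and Bglap2 the most abundant. Of 5 tenocyte genes 1 rose and 3 fell, with 1166 to 1388 against 3904 and 5239 FPKM, with Fmod and Thbs4 the most abundant. Of 7 erythroid genes the 4 tested, all globins, fell, with Hba-a1 and Hba-a2 the most abundant, and the sum was 150 and 239 FPKM in primary and at most 0.610 FPKM in cultured MSCs. Of 8 endothelial genes 2 were tested, of which Egfl7 rose and Tek fell. Each of the 2 reached 1 FPKM in 1 group alone and so had to differ to be tested, as did Col9a1, 1 of the chondrocyte genes that fell. The endothelial sum was 4.95 to 5.49 FPKM in cultured and 3.84 and 4.40 FPKM in primary MSCs, with Cldn5 listed at 0 in every library. Ly6a, the gene of the sort marker Sca-1, had 1056 to 1711 FPKM over the 6 libraries, while Pdgfra, also of the gate, had 66.84 and 72.65 FPKM in primary and 35.48 to 43.08 FPKM in cultured MSCs (log2 fold change -0.82, limma adjusted p = 0.000486). Ptprc, the gene of CD45, was at 0 and 0.02 FPKM in primary and at 0.12 to 0.47 FPKM in cultured MSCs. Whether these transcripts came from the sorted cells or from others was not tested. Nor was the part of other cells in the changes described below.

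Of the 46 enzymes 32 were tested. Of these 9 rose, 8 fell and 15 remained without a call. Of all genes tested 48.1% rose and 17.6% fell, so the enzymes that rose were 28.1% and those that fell 25.0% of those tested. By the thresholds of the study (adjusted p up to 0.01, log2 fold change of 2 or more in either direction) 2 enzymes were higher and 5 lower, beside 8.36% and 5.95% of all genes. These shares come from limma on FPKM. With DESeq2 the paper reported more genes lower than higher at these thresholds, so the shares are not those of its own comparison. The groups did not overlap in 17 enzymes, 9 higher and 8 lower, against 52.3% and 20.4% of all genes. With median ratio scaling, which leaves the median gene at 0.06, 8 enzymes rose and 12 fell, with Chst7 losing its call and Ndst1, Csgalnact2, Chst2 and B3gat3 passing as lower, while over all genes 3525 rose and 3121 fell in place of 5485 and 2008. The median log2 fold change of the tested enzymes was 0.15. None of the 17 enzymes that passed changed direction under any scaling tried, but small changes moved in size, with Sulf2 at -0.80, Chst12 at -0.75, Ext2 at 0.53 and Extl2 at 0.42 under median ratio scaling, all still past the threshold. With a pseudocount of 1 the weakly expressed Chst3, Chst5 and Xylt2 stood at -1.18, -2.32 and 0.89, also past it. Of these 17 calls, 5 concern enzymes that reached 1 FPKM in 1 group alone: Hs6st2 in cultured MSCs, and Hs3st1, Chst15, Chst3 and Chst5 in primary MSCs. These had to differ to be tested at all, so the counts describe the enzymes and are no support for a change of the pathway.

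**Figure D1:**
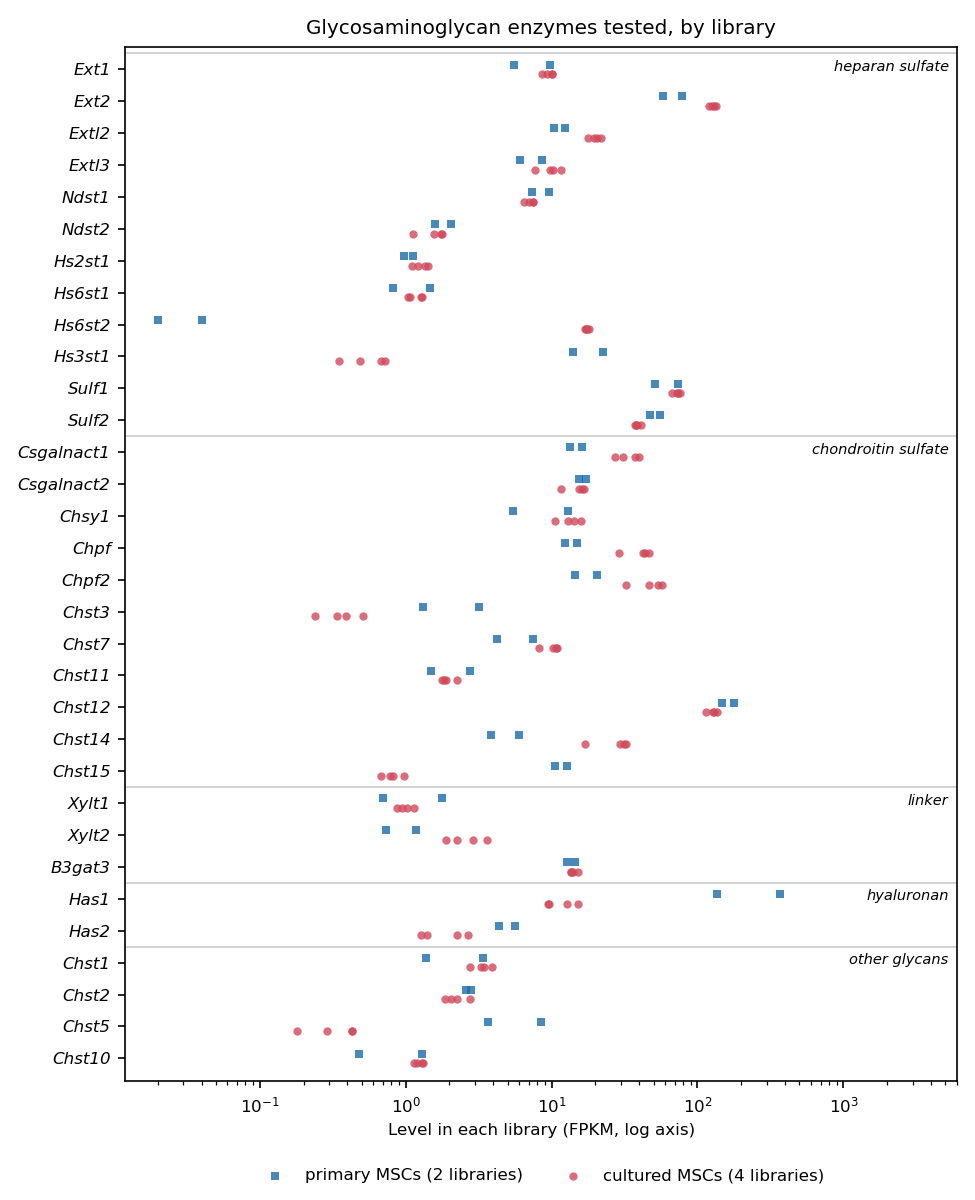
FPKM of the 32 tested enzymes in each library on a log axis, with blue squares for the 2 primary and red circles for the 4 cultured libraries. Hs6st2 lies at 0.02 and 0.04 FPKM in primary and at 16.93 to 18.06 FPKM in cultured MSCs, while Hs3st1, Chst15 and Has1 lie on the other side.

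**Figure D2:**
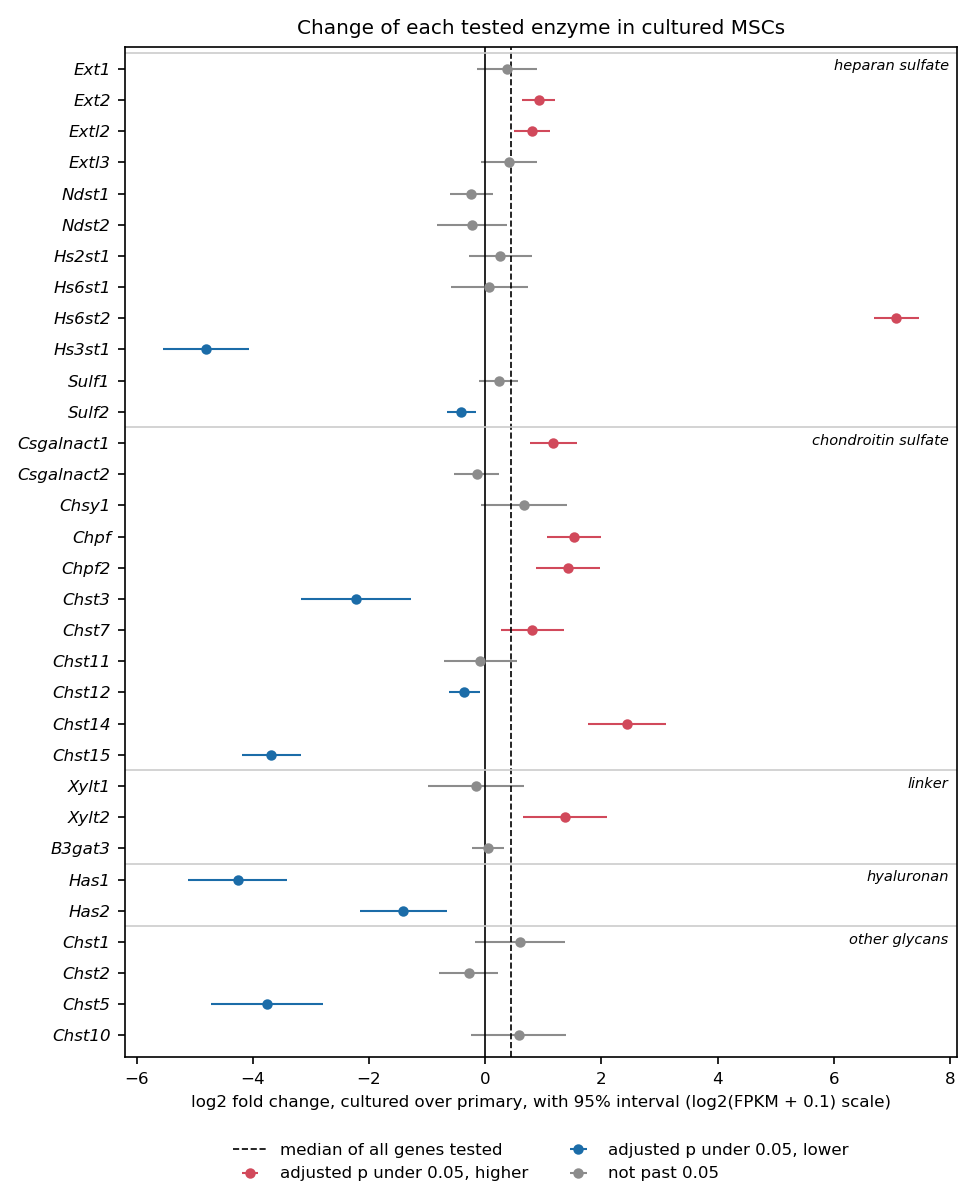
log2 fold change of cultured over primary MSCs with its 95% interval for the 32 tested enzymes, coloured by the limma call. The dashed line is the median of all genes tested, 0.45, and the enzymes run from -4.80 for Hs3st1 to 7.08 for Hs6st2.

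Of the 12 tested enzymes of heparan sulfate 3 rose and 2 fell, beside 48.1% and 17.6% of all genes. The sulfotransferases of heparan sulfate gave both the largest rise and the largest fall among all the enzymes. Hs6st2, which adds sulfate to the 6-O position of glucosamine, had 0.02 and 0.04 FPKM in primary MSCs and 16.93, 18.06, 17.23 and 17.41 FPKM in cultured MSCs. It was close to absent in both primary libraries, and the cultured libraries lay within a narrow band far above them. The log2 fold change was 7.08 (standard error 0.17, limma adjusted p = 1.36e-07), and ranged from 4.16 with a pseudocount of 1 to 8.81 with a pseudocount of 0.01, since it rests on values next to 0. Its partner Hs6st1, with the same activity, had 1.47 and 0.82 FPKM in primary and 1.04, 1.29, 1.28 and 1.07 FPKM in cultured MSCs. Those values overlapped, with a log2 fold change of 0.07 and a 95% interval of -0.59 to 0.74. Hs6st2 thus made up 1.34% and 4.65% of the summed Hs6st level in primary MSCs and 93.1% to 94.2% in cultured MSCs. The share does not depend on how libraries are scaled.

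Hs6st2 lies on chromosome X at 51386637 to 51681705 (GRCm38.p6), on the minus strand. RefSeq lists 2 separate starts for it, and a gene-level FPKM does not say which was used in cultured MSCs. Windows of 300 bases that end shortly after each start, taken from RefSeq on GRCm38.p6, are shown because this gene changed most, beside that of Hs6st1 on chromosome 1, which encodes the same activity and did not pass. Capitals mark matches, on either strand, to 5 motifs, namely TATAAA (the TATA box), CCAAT (the CCAAT box), GGGCGG (the GC box), TGANTCA (the AP-1 site) and ACGTG (the core that hypoxia-inducible and basic helix-loop-helix factors share).
Hs6st1, window at chr1:36068150-36068449 (plus strand): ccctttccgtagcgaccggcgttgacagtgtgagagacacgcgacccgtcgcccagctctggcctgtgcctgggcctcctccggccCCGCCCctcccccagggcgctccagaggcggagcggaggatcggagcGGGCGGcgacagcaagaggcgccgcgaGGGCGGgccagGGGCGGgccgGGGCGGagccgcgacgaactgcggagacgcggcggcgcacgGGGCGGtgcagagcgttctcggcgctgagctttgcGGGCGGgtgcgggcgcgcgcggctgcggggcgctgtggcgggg
Hs6st2, window at chrX:51680428-51680727 (minus strand): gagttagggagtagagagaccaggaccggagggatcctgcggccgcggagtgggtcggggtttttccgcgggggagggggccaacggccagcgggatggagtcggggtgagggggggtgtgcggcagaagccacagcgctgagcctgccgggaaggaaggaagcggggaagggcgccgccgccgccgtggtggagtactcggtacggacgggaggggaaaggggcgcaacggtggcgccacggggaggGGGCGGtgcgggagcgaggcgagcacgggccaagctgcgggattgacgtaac
Hs6st2, window at chrX:51681553-51681852 (minus strand): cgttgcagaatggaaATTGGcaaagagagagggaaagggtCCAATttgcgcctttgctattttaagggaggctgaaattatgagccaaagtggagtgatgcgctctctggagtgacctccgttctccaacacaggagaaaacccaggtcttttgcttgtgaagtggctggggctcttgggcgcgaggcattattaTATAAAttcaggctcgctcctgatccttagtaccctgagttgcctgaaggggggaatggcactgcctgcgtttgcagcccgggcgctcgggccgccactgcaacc
The Hs6st1 window holds 47 CpG dinucleotides and 7 GC boxes. The upper window of Hs6st2 holds 33 CpG and 1 GC box beside the start, and the lower holds 12 CpG, 1 TATAAA and 2 CCAAT. No matches overlap. TATAAA occurs in 13.6% of all 32851 promoter windows of that length, CCAAT in 37.4% and GGGCGG in 35.7%, TGANTCA in 7.8% and ACGTG in 19.6%. The windows were chosen after the values were seen, and a match describes the letters and not a bound factor. In all, 35 of the 46 enzymes matched a RefSeq window (42 windows). Their median was 21.5 CpG, beside 7 over all windows, and 25 of the 35 held a GC box in at least 1 window.

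Hs3st1 adds the rare 3-O-sulfate that completes the antithrombin-binding site of heparan sulfate. It had 14.14 and 22.45 FPKM in primary MSCs and 0.72, 0.49, 0.68 and 0.35 FPKM in cultured MSCs. Every cultured library was far below both primary ones, a log2 fold change of -4.80 (standard error 0.32, limma adjusted p = 8.70e-06). The other 3-O-sulfotransferases, Hs3st2, Hs3st3a1, Hs3st3b1, Hs3st4, Hs3st5 and Hs3st6, were all below the filter. Of these Hs3st3b1 reached most, with 0.37 and 0.72 FPKM in primary and 0.25 to 0.40 FPKM in cultured MSCs. Hs3st3a1 and Hs3st3b1 encode near-identical catalytic domains, so how reads were divided over the pair is uncertain. The summed 3-O level was therefore 14.8 and 23.2 FPKM in primary and 0.860 to 1.22 FPKM in cultured MSCs. Hs3st1 held 95.6% and 96.9% of it in primary MSCs and 40.7% to 64.2% in cultured MSCs.
The 2 extracellular sulfatases, which strip 6-O-sulfates from finished chains, were the most abundant enzymes of this class after Ext2. Sulf2 had 47.53 and 55.38 FPKM in primary and 37.08, 38.70, 41.14 and 37.64 FPKM in cultured MSCs. The groups lay apart but close, with a log2 fold change of -0.41 (standard error 0.11, limma adjusted p = 0.00936). Sulf1 had 51.31 and 73.19 FPKM in primary and 72.51, 73.14, 66.87 and 75.92 FPKM in cultured MSCs. It did not pass the test, at 0.23 with an interval of -0.10 to 0.57, and was -0.16 with median ratio scaling. Within each library Sulf1 was 1.08 and 1.32 times as high as Sulf2 in primary MSCs and 1.63 to 2.02 times as high in cultured MSCs, with no overlap.

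None of the enzymes of N-sulfation and 2-O-sulfation passed the test. Ndst1, the main N-deacetylase and N-sulfotransferase, whose action precedes the other sulfations, had 7.33 and 9.57 FPKM in primary and 7.46, 7.51, 7.03 and 6.45 FPKM in cultured MSCs. Its log2 fold change of -0.24 was not called (interval -0.61 to 0.14), although it passed as lower, at -0.62, with median ratio scaling, and at -0.43 without primary replicate 1. Ndst2 had 1.6 and 2.04 FPKM in primary and 1.13 to 1.79 FPKM in cultured MSCs, and Ndst3 was listed at 0 in both primary libraries, with 0.16 to 0.23 FPKM in cultured MSCs. Ndst1 held 76.7% to 83.8% of the family in every library. Hs2st1, the single 2-O-sulfotransferase, had 0.97 and 1.12 FPKM in primary and 1.11 to 1.43 FPKM in cultured MSCs, at 0.26 with an interval of -0.27 to 0.80.
Among the polymerases, Ext2 rose while its partner Ext1 did not pass. EXT1 and EXT2 form the complex that extends the heparan sulfate chain. Ext2 had 58.18 and 77.76 FPKM in primary and 134.08, 128.78, 120.02 and 126.57 FPKM in cultured MSCs, at 0.92 on the log2 scale (standard error 0.13, limma adjusted p = 0.000366). Ext1 had 9.74 and 5.5 FPKM in primary and 10.14, 10.06, 8.63 and 9.29 FPKM in cultured MSCs, which overlapped, with an interval of -0.14 to 0.89. Ext2 was thereby 12.8 to 13.9 times as high as Ext1 in the cultured libraries and 5.97 and 14.1 times as high in the primary ones, an overlap. Extl2, which caps a phosphorylated linker and halts its growth, rose with a log2 fold change of 0.81 (limma adjusted p = 0.00100), from 10.45 and 12.34 to between 17.79 and 21.84 FPKM. Extl3, which places the first glucosamine of a heparan sulfate chain, had 6.11 and 8.59 FPKM in primary and 7.65 to 11.53 FPKM in cultured MSCs, at 0.41 with an interval of -0.07 to 0.89. Extl1, a related transferase, stood at 0.02 and 0 FPKM in primary and at 0.44 to 0.98 FPKM in cultured MSCs, just under the filter. Tested without a filter, Extl1, Ndst3 and Hs3st6 passed as higher and no other enzyme below the filter did. Each of these 3 was below 1 FPKM in every library.

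Of the 11 tested enzymes of chondroitin sulfate 5 rose and 3 fell, beside 48.1% and 17.6% of all genes. Those that rose were Chpf, Chpf2 and Csgalnact1 of the chain itself and the sulfotransferases Chst14 and Chst7, and those that fell were the sulfotransferases Chst15, Chst3 and Chst12. Chst14, which sulfates the 4-O position of dermatan sulfate, the epimerised form of chondroitin sulfate, had 3.85 and 6.02 FPKM in primary MSCs. In cultured MSCs it had 17.01, 29.51, 31.28 and 32.21 FPKM. All cultured libraries were above both primary ones, with replicate 1 the lowest, and the log2 fold change was 2.44 (standard error 0.29, limma adjusted p = 0.000162). Chst12, the most abundant chondroitin 4-O-sulfotransferase, had 178.89 and 148.24 FPKM in primary and 137.14, 130.23, 126.93 and 114.24 FPKM in cultured MSCs. Its fall was small, at -0.36 (standard error 0.11, limma adjusted p = 0.0238), and did not pass without primary replicate 1, at -0.22, or without cultured replicate 3 or 4, at -0.36 and -0.31. Chst11, of the same activity, had 1.5 and 2.78 FPKM in primary and 1.78 to 2.24 FPKM in cultured MSCs, which overlapped (interval -0.71 to 0.55). Chst12 was 24.6 and 46.5 times as high as Chst14 in primary MSCs and 3.55 to 8.06 times as high in cultured MSCs. Within the 4-O family Chst14 thus held 2.09% and 3.82% in primary and 10.9% to 21.7% in cultured MSCs.
Chst14 lies on chromosome 2 at 118926497 to 118928585 (GRCm38.p6), on the plus strand. Its RefSeq window is shown because it had 5 GC boxes and 3 ACGTG matches, 8 in all, the most of any enzyme's window.
Chst14, window at chr2:118926247-118926546 (plus strand): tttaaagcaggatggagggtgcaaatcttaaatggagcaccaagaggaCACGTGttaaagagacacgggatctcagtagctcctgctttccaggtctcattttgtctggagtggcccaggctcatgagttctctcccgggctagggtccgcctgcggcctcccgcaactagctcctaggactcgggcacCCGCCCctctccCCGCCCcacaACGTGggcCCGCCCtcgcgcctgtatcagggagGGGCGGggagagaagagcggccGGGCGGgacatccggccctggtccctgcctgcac
Of the ACGTG matches, 1 on each strand overlap to form CACGTG, at positions 49 and 50 of the window counted from its 5′ end.

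Chst15, which adds a further sulfate to units already sulfated at the 4-O position, had 10.50 and 12.67 FPKM in primary MSCs and 0.98, 0.78, 0.68 and 0.82 FPKM in cultured MSCs. It was below 1 FPKM in every cultured library and above 10 FPKM in both primary ones, a log2 fold change of -3.68 (standard error 0.22, limma adjusted p = 5.18e-06). GENCODE places a transcript of Fgfr2 across its locus on the same strand, so the assignment of reads there is uncertain. The 6-O-sulfotransferases Chst3 and Chst7 moved in opposite directions. Chst3 had 1.31 and 3.17 FPKM in primary and 0.24, 0.34, 0.39 and 0.51 FPKM in cultured MSCs, at -2.22 (standard error 0.41, limma adjusted p = 0.00173). Its primary libraries were unequal, and the log2 fold change was -2.83 without primary replicate 1 and -1.62 without primary replicate 2, both past the threshold. Chst7 had 4.26 and 7.46 FPKM in primary and 8.26, 10.24, 10.77 and 10.82 FPKM in cultured MSCs, at 0.81 (standard error 0.23, limma adjusted p = 0.0157). The groups lay close, and Chst7 no longer passed without primary replicate 1, at 0.41, with median ratio scaling, at 0.42, with quantile normalization, at 0.48, or without the filter. Chst3 held 23.5% and 29.8% of the 6-O family in primary and 2.82% to 4.50% in cultured MSCs, with Chst7 making up the rest.
The chain polymerases of chondroitin sulfate summed to 70.9 and 72.5 FPKM in primary and to 128 to 163 FPKM in cultured MSCs. Chpf and Chpf2 are the partners with which chondroitin synthases extend the chain. Chpf had 12.46 and 15.01 FPKM in primary and 28.80, 44.03, 42.11 and 46.88 FPKM in cultured MSCs, at 1.53 (standard error 0.20, limma adjusted p = 0.000287). Chpf2 had 14.39 and 20.52 FPKM in primary and 32.61, 46.76, 53.80 and 56.92 FPKM in cultured MSCs, at 1.43 (standard error 0.24, limma adjusted p = 0.00105). In both genes every cultured library was above both primary ones and cultured replicate 1 was the lowest of its group, as in Chst14. Chsy1, the synthase itself, had 12.88 and 5.41 FPKM in primary and 10.58 to 15.92 FPKM in cultured MSCs, which overlapped, at 0.66 with an interval of -0.08 to 1.40. Chsy3, the other synthase, was below the filter, at 0.540 FPKM or less. Csgalnact1, which places the first N-acetylgalactosamine and so commits a linker to chondroitin sulfate, had 13.42 and 16.12 FPKM in primary and 39.49, 27.07, 37.53 and 30.79 FPKM in cultured MSCs. It rose with a log2 fold change of 1.18 (standard error 0.17, limma adjusted p = 0.000554). Csgalnact2, of the same activity, had 17.22 and 15.42 FPKM in primary and 11.57, 15.33, 16.58 and 16.09 FPKM in cultured MSCs. It overlapped between the groups, at -0.14 with an interval of -0.53 to 0.25, and passed as lower, at -0.53, with median ratio scaling. Csgalnact1 held 43.8% and 51.1% of this family in primary and 63.8% to 77.3% in cultured MSCs.

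Of the 3 linker enzymes only Xylt2 passed, as higher, beside 48.1% of all genes that rose. Xylosyltransferases put the first sugar of the linker on a serine of the core protein, in mice as Xylt1 and Xylt2. Xylt2 had 1.17 and 0.74 FPKM in primary and 2.25, 1.88, 3.59 and 2.90 FPKM in cultured MSCs, at 1.38 (standard error 0.31, limma adjusted p = 0.00508). Xylt1 had 1.77 and 0.70 FPKM in primary and 0.88, 0.94, 1.15 and 1.02 FPKM in cultured MSCs, where the cultured values lay between the primary ones (interval -0.99 to 0.66). Xylt2 was 0.661 and 1.06 times as high as Xylt1 in primary MSCs and 2.00 to 3.12 times as high in cultured MSCs. B3gat3, which completes the linker with glucuronic acid, had 14.39 and 12.84 FPKM in primary and 13.59, 13.50, 15.09 and 13.99 FPKM in cultured MSCs. Its log2 fold change was 0.05 (interval -0.23 to 0.32), but -0.34 with median ratio scaling, where it passed as lower and where the median gene stood at 0.06.

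Both hyaluronan synthases that could be tested fell, beside 17.6% of all genes. Has1 had 365.54 and 135.95 FPKM in primary MSCs and 12.80, 9.61, 15.11 and 9.5 FPKM in cultured MSCs. Its percentile among all genes, taken within each library and then averaged, was 97.6 in primary and 70.1 in cultured MSCs. It was the most abundant of all the enzymes in 1 of the primary libraries. The primary libraries differed more from each other than the cultured ones did, but both lay far above every cultured library. The log2 fold change was -4.26 (standard error 0.37, limma adjusted p = 3.03e-05), with -3.55 without primary replicate 1 and -4.97 without primary replicate 2. Has2, the synthase needed for heart development in mice, had 4.40 and 5.60 FPKM in primary and 2.67, 1.40, 1.27 and 2.24 FPKM in cultured MSCs, at -1.41 (standard error 0.32, limma adjusted p = 0.00543). An antisense gene, Has2os, overlaps it. The library kit does not mark strand, so reads from a stretch that transcripts of both genes cover cannot be told apart. The same holds where Ext2, Chpf2, Sulf2 and Ndst1 overlap Alx4, Smarcd3, Ncoa3 and Rps14 on the opposite strand. Antisense genes that code for no protein overlap further enzymes, among them Csgalnact1, Hs6st1, Chsy1 and Chst11. A pseudogene, Gm14581, overlaps Hs6st2 on the same strand. Has3 was listed at 0 in every library but cultured replicate 4, at 0.05 FPKM. Has1 was 83.1 and 24.3 times as high as Has2 in primary and 4.24 to 11.9 times as high in cultured MSCs, with no overlap. Together the synthases summed to 369.94 and 141.55 FPKM in primary and to 11.01 to 16.38 FPKM in cultured MSCs.
Has1 lies on chromosome 17 at 17833691 to 17855589 (GRCm38.p6), on the minus strand. Its RefSeq window is shown because it is poor in CpG beside those of most of the other enzymes, with 5 against a median of 21.5, and holds 1 CCAAT and none of the other motifs searched. Neither trait is particular to Has1. The windows of Chst1, Chst4 and Ndst3 had as few CpG or fewer, and the median over all windows was 7. Windows of B3gat3, Chpf2, Extl1 and Ndst3 also held CCAAT alone.
Has1, window at chr17:17855139-17855438 (minus strand): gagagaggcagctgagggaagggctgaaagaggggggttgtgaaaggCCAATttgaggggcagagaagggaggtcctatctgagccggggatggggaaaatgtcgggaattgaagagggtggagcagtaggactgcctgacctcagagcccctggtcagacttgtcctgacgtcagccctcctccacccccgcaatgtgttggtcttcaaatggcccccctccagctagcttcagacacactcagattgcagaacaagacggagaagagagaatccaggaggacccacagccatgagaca
Of the other enzymes that fell strongly, the window of Hs3st1 holds 24 CpG and none of the 5 motifs, while that of Chst5 holds 3 GC boxes and each of the 2 windows of Chst15 holds 2.

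Of the 7 enzymes of other glycans 4 were tested, 1 fell and 3 did not pass, where 17.6% of all genes fell and 48.1% rose. Chst5, which in mice sulfates the keratan sulfate of the cornea, had 8.45 and 3.65 FPKM in primary and 0.43, 0.29, 0.43 and 0.18 FPKM in cultured MSCs, at -3.76 (standard error 0.42, limma adjusted p = 0.000116). It was below 0.5 FPKM in every cultured library, and the log2 fold change ran from -3.16 without primary replicate 1 to -4.35 without primary replicate 2. Chst1, a keratan sulfate sulfotransferase, had 3.39 and 1.38 FPKM in primary and 2.77 to 3.91 FPKM in cultured MSCs (interval -0.18 to 1.37). Chst2, which sulfates N-acetylglucosamine in selectin ligands, had 2.82 and 2.59 FPKM in primary and 1.86 to 2.76 FPKM in cultured MSCs (interval -0.79 to 0.22). Chst10, which makes the HNK-1 epitope, had 0.48 and 1.29 FPKM in primary and 1.15 to 1.32 FPKM in cultured MSCs (interval -0.25 to 1.40).
Of the 46 enzymes 14 stayed below the filter, at 0 to 0.98 FPKM. Beside those already given these were B3gat2 of the HNK-1 epitope, Chst4 of selectin ligands, Chst8 of N-glycans and Chst13 of chondroitin 4-O-sulfation. Of the 14, 5 were listed at 0 in both primary libraries.

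Shares within a family compare related enzymes inside each library and are the same under any scaling of libraries. Some families mix activities, as that of 4-O-sulfation, where Chst14 acts on dermatan sulfate and Chst12 on chondroitin sulfate. The shares are given as a description, since an exact permutation test of 4 against 2 libraries cannot give a p under 0.0667 and most of the enzymes named are those whose share differed most in their family. Sulf1 held 51.9% and 56.9% of the sulfatase level in primary and 61.9% to 66.9% in cultured MSCs. Has1 held over 80% of the hyaluronan synthase level in every library.

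**Figure D3:**
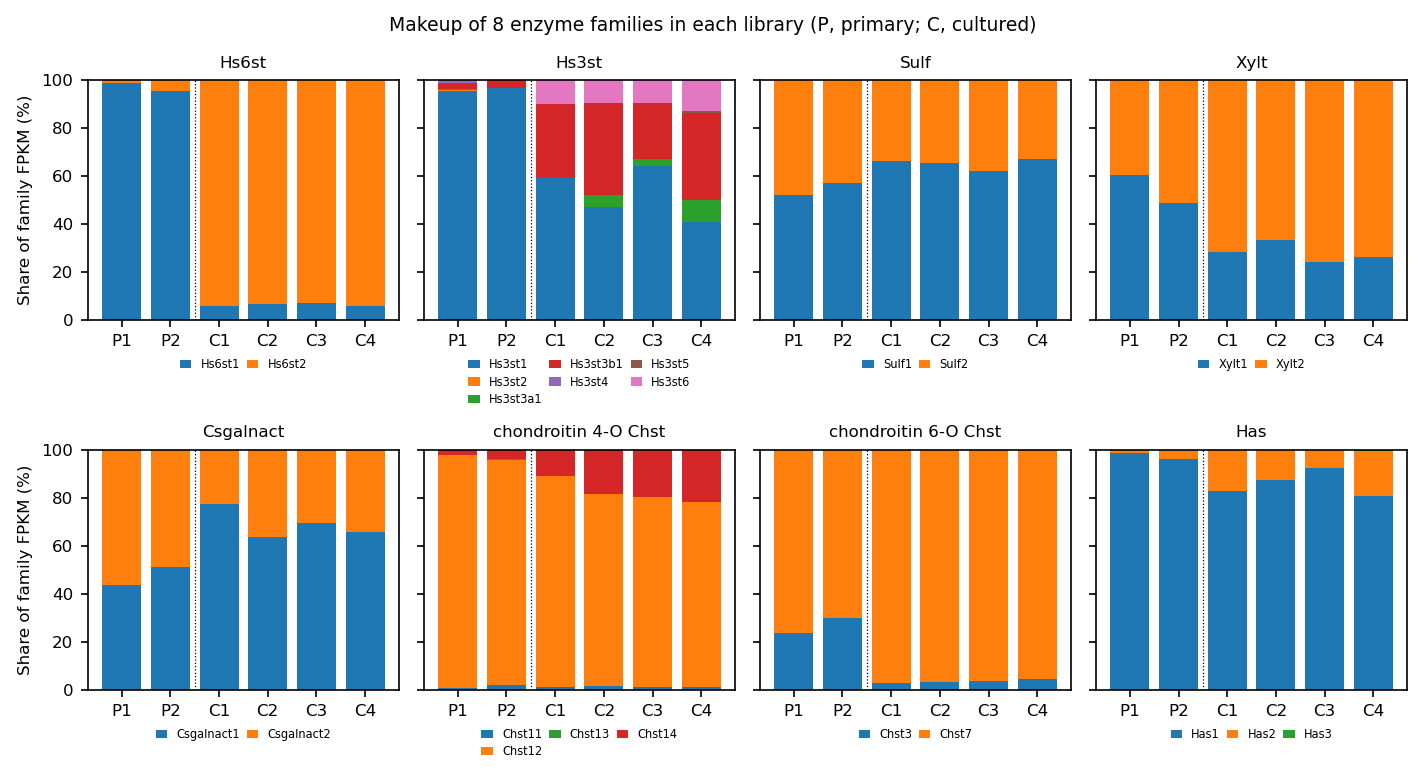
Stacked bars give the share of each enzyme in the summed FPKM of its family, in percent, for 8 families in the 2 primary (P) and 4 cultured (C) libraries. Hs6st2 holds 1.34% and 4.65% of its family in primary and 93.1% to 94.2% in cultured MSCs, and Hs3st1 and Chst3 hold less of theirs in every cultured library.

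The genes around these enzymes were counted from 4 lists. Of 8 genes of the rest of the linker and of the epimerases, all tested, 6 rose and 1 fell, beside 48.1% and 17.6% of all genes. Their median log2 fold change was 1.06 beside 0.45 over all genes. With median ratio scaling 5 of the list rose and 2 fell, with a median of 0.67. Glce, the epimerase that makes iduronic acid in heparan sulfate, had 3.70 and 6.22 FPKM in primary and 14.58 to 19.74 FPKM in cultured MSCs, at 1.75 (limma adjusted p = 0.000246). B4galt7, which adds galactose to the linker, rose by 1.62 on the log2 scale, and Pxylp1, which removes the phosphate of the linker xylose, by 1.55. Dse, an epimerase of dermatan sulfate and the most abundant of the list, rose by 1.11. Ust, which sulfates uronic acid in dermatan sulfate, had 2.54 and 3.67 FPKM in primary and 0.62 to 1.08 FPKM in cultured MSCs, at -1.83 (limma adjusted p = 0.000865). Chst14 and Dse, which act on dermatan sulfate, thus both rose, and Ust and Chst15 both fell. Dsel, the other dermatan sulfate epimerase of the list, had 8.27 and 7.21 FPKM in primary and 6.13 to 7.29 FPKM in cultured MSCs. It was at -0.20 without a call, and passed as lower, at -0.59, with median ratio scaling.
Of 20 genes that supply sugar nucleotides and activated sulfate 19 were tested, 14 rose and 3 fell, with a median of 0.71. Over all genes 48.1% rose and 17.6% fell. With median ratio scaling 8 of the list rose and 5 fell. Slc26a2, a sulfate transporter, and Gfpt1, of the first step of the hexosamine pathway, rose by 1.55 and 1.36 on the log2 scale. Gfpt2, the other enzyme of that step, had 191.93 and 170.29 FPKM in primary and 9.78 to 13.66 FPKM in cultured MSCs, at -3.90 (limma adjusted p = 6.09e-07). Uap1, which completes UDP-N-acetylglucosamine, had 259.03 and 266.23 FPKM in primary and 31.76 to 42.32 FPKM in cultured MSCs, at -2.83 (limma adjusted p = 1.03e-06). In both genes the groups lay far apart and the primary libraries were close to each other. Ugdh, which makes UDP-glucuronic acid and was the most abundant of the list, rose by 0.73. Ugp2, which makes the UDP-glucose that Ugdh uses, fell, at -0.95, and of the further enzymes towards UDP-N-acetylglucosamine Pgm3 rose, at 0.47, and Gnpnat1 was at -0.02 without a call. With median ratio scaling Pgm3 did not pass, at 0.08, and Gnpnat1 passed as lower, at -0.41.

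**Figure D4:**
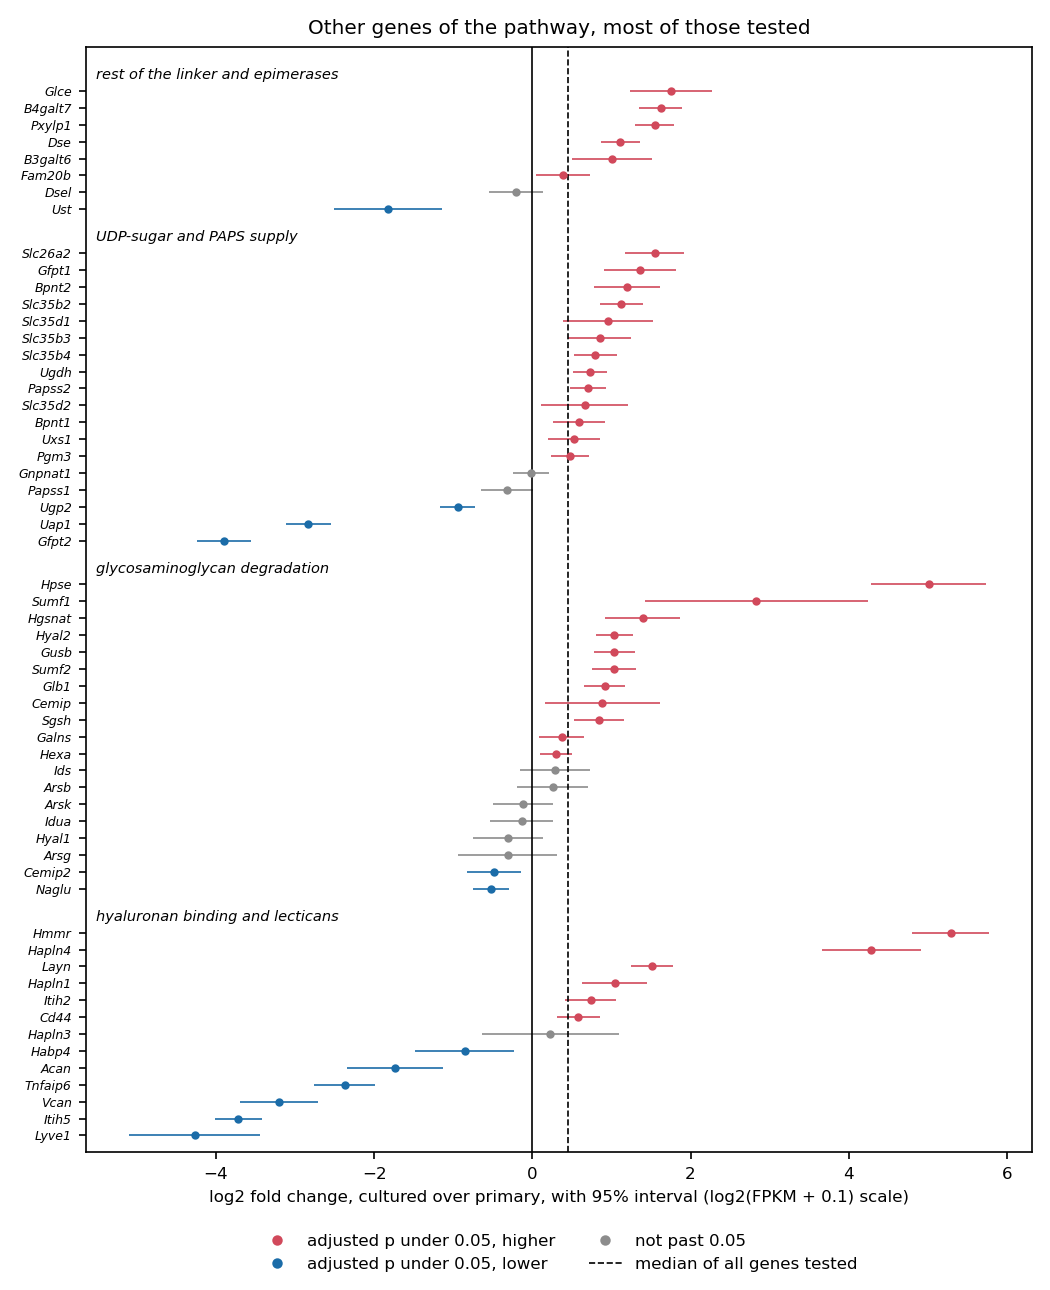
log2 fold change of cultured over primary MSCs for most of the tested genes of the 4 lists around the enzymes, 1 point a gene with its 95% interval. Lyve1 at -4.27, Gfpt2 at -3.90, Itih5 at -3.72 and Uap1 at -2.83 lie low, Hmmr at 5.29 and Hpse at 5.01 lie high, and the dashed line is the median of all genes, 0.45.

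Of 23 genes of glycosaminoglycan degradation 21 were tested, 12 rose and 3 fell, with a median of 0.37, beside 48.1% and 17.6% and a median of 0.45 over all genes. With median ratio scaling 9 rose and 6 fell, with a median of -0.02. Hpse, the heparanase that cuts heparan sulfate chains, was at 0 and 0.01 FPKM in primary and at 2.47 to 4.62 FPKM in cultured MSCs. Sumf1, which activates sulfatases, had 5.32 and 3.65 FPKM in primary and 10.54, 34.31, 57.90 and 50.15 FPKM in cultured MSCs, at 2.83 (limma adjusted p = 0.00396). Cultured replicate 1 was far below the other cultured libraries, yet above both primary ones. Naglu, a lysosomal enzyme that removes amino sugars, fell by 0.53 on the log2 scale (limma adjusted p = 0.00194). Hexa, a lysosomal hexosaminidase subunit and the most abundant of the list, passed as higher at 0.30 but was -0.09 with median ratio scaling and -0.15 with quantile normalization.
Of 22 genes of hyaluronan binding and the lecticans 13 were tested, 6 rose and 6 fell, beside 48.1% and 17.6% of all genes, and with median ratio scaling 4 rose and 6 fell. Hpse of the previous list and Hmmr, Hapln4 and Lyve1 of this one reached 1 FPKM in 1 group alone, so they had to differ to be tested. Of the lecticans, the large hyaluronan-binding proteoglycans of the matrix, Vcan and Acan fell, at -3.20 and -1.74. Hmmr, a hyaluronan receptor that also acts at the mitotic spindle, had 0.31 and 0.52 FPKM in primary and 18.35 to 23.34 FPKM in cultured MSCs, at 5.29. Layn, another hyaluronan receptor, rose by 1.51 on the log2 scale. Hapln4, a link protein, was listed at 0 in primary and stood at 1.58 to 2.14 FPKM in cultured MSCs. Itih5, of the family whose heavy chains are bound to hyaluronan, had 67.11 and 71.84 FPKM in primary and 4.84 to 5.79 FPKM in cultured MSCs, at -3.72 (limma adjusted p = 4.06e-07). Lyve1, the hyaluronan receptor of lymphatic vessels and of some macrophages, had 1.80 and 2.33 FPKM in primary and at most 0.04 FPKM in cultured MSCs. Cd44, the main hyaluronan receptor and the most abundant of the list, had 106.53 and 134.69 FPKM in primary and 164.72 to 187.49 FPKM in cultured MSCs. It rose by 0.58 (limma adjusted p = 0.00272), but did not pass with median ratio scaling, at 0.19.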

How the data were processed

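Gene expression was measured by RNA sequencing (SMART-Seq v4) in 2 libraries of primary and 4 of cultured MSCs. According to the submitters' processing notes and the methods, HISAT2 2.0.4 served for alignment to GRCm38.p6, Bowtie2 2.2.5 for alignment to the gene set and RSEM 1.2.8 for the levels. The authors deposited FPKM values with 2 decimals for 17457 genes, with no read counts, and 1 column of log2 fold changes that the authors computed with DESeq2, which was not used.
Groups were compared with limma 3.58.1 in R 4.3.3, with a trend, on log2(FPKM + 0.1) over the 11405 genes that reached 1 FPKM in 2 or more libraries, with Benjamini-Hochberg adjustment over all of them (4 residual degrees of freedom). The deposited unit allows no test on counts. The procedure was tested on simulated data. A share is the FPKM of 1 enzyme in percent of its family, for which a two-sided exact permutation test over libraries cannot pass in this design. Each library is a pool of mice, the primary pools being unequal in mice and in cells, so p-values measure the spread between pools.
Every enzyme past the filter is named with its values and the others by range. From each list of related genes, the text names the 3 that changed most in its main direction, up to 2 that changed most in the opposite one and the gene at the highest FPKM. Dsel, Ugp2, Pgm3, Gnpnat1, Vcan and Acan are named in addition, outside this rule, as are some genes of the closing sections. Each cell type list is shown by its 2 most abundant genes and its defining markers at 0. A few genes that this rule picks are counted in their lists but not reported here. Members, lists and tests were chosen with earlier results of these data known. Promoter windows came from RefSeq on GRCm38.p6 and gene overlaps from GENCODE on GRCm38.
Results were recomputed with a pseudocount of 0.01 or 1, without a filter, with a filter on the mean (1 FPKM), with median ratio scaling, quantile normalization, rescaling to TPM, limma without trend and with robust moderation, the replicate number as a block, shares of FPKM + 0.1, and leaving out each library in turn with the same genes tested. Where 1 primary library was left, its spread was taken to equal that of cultured MSCs. Python 3.11.15 with pandas 2.3.3, numpy 2.4.6 and matplotlib 3.10.9 served for tables and figures.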

Additional observations from a re-analysis of the deposited data

Results flagged for a closer look

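Among the 4 cultured libraries, 1 library stood far from the other 3 in 4 of 93 genes examined, the 32 tested enzymes and 61 tested genes of the surrounding lists. Chance gives about 1 in 20. None of the 4 was one of the enzymes. Gusb, a lysosomal glucuronidase, had 82.5 FPKM in cultured replicate 1 beside 72.35 to 73.19 FPKM in the others. Hmmr had 23.34 FPKM in cultured replicate 1 beside 18.35 to 18.66 FPKM. Ugdh had 478.68 FPKM in cultured replicate 1 beside 424.77 to 428.85 FPKM. Layn had 37.46 FPKM in cultured replicate 2 beside 43.58 to 44.09 FPKM.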

How the results depend on the processing

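Over the alternatives that kept both primary libraries 8 to 11 enzymes passed as higher, 7 to 12 as lower and 6 to 7 passed the study's thresholds. Of the 17 enzymes that passed, 15 did so under each of these in which they were tested, the exceptions being Chst7 and Chst12. With the filter on the mean Chst3 was not tested. Among the enzymes, values changed sign only where they had not passed. Of the surrounding genes that had passed as higher, Hexa, Galns and Fam20b changed sign, with Galns at -0.019 and Fam20b at -0.0027 under median ratio scaling. With median ratio scaling B3gat3 was -0.34, Ext1 -0.014, Hexa -0.092, Hs2st1 -0.10, Hs6st1 -0.29 and Sulf1 -0.16. With quantile normalization B3gat3 was -0.36, Hexa -0.15, Hs6st1 -0.21 and Sulf1 -0.16, and rescaled to TPM B3gat3 was -0.10 and Hs6st1 -0.056. Leaving out each library in turn, B3gat3 ranged from -0.036 to 0.13, Chst1 from -0.023 to 1.22, Chst10 from -0.055 to 1.21, Chst11 from -0.50 to 0.34, Ext1 from -0.034 to 0.78, Hs6st1 from -0.31 to 0.46, Sulf1 from -0.023 to 0.49 and Xylt1 from -0.77 to 0.45. The share of Chsy1 in its enzyme family differed by -8.81 percentage points, with a range from -18.2 to 0.58. The cause was not tested. Replicate numbers 1 and 2 occur in both groups, but nothing in the labels says that they mark a shared animal or day, and deviations from the group means of same-numbered libraries correlated by 0.12 and 0.05 over genes. With the replicate number as a block 9 enzymes were higher and 7 lower, Chst7 and Chst12 did not pass, at 0.70 and -0.29, Chsy1 passed, at 0.84, and B3gat3 was -0.0051 and Chst11 0.011. Without read counts, the error of values near 0 FPKM is unknown.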
